A study of Mus musculus with 5 samples.

Results

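The 10 genes described here are markers of the colonic epithelium, examined in whole colon of mice given NT-3N, which activates the IL-11 receptor. Car1, Car4, Krt20, Ceacam1 and Guca2a are expressed mainly by mature colonocytes near the surface, and Krt8, Epcam, Cdh1, Vil1 and Lgals4 are expressed by epithelial cells more widely. The genes were taken as a list of names. Every probe whose accession matched 1 of them was used, which gave 13 of the 56605 noncontrol probes on the array, and each gene was 1 of the 32917 features tested. Car1, Ceacam1 and Lgals4 had 2 probes each. Tests used the brightest probe of a gene.

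The mice were wild-type C57BL/B6. Control mice gave 2 arrays, and mice sacrificed 3 h after intravenous injection of NT-3N gave 3 arrays, 1 mouse on each. NT-3N is an engineered form of human IL-11. An age of 8 weeks is given for the injected mice. No vehicle injection is given for the control mice, so the injection and the agonist cannot be told apart. The series text and the methods give the dose in different units, so no dose is stated here.

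The colonic epithelium is renewed from stem cells at the crypt base. Their daughters divide in the lower crypt, move upwards and mature into absorptive colonocytes, goblet cells and enteroendocrine cells, and the oldest cells are shed from the surface within days. Mature colonocytes take up water and salt and exchange bicarbonate, a task to which carbonic anhydrases contribute. IL-11 signals through its own receptor chain and gp130, which activates STAT3, and both epithelial cells and fibroblasts of the colon can respond to it.

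The arrays shared 1 slide and 1 scan time, and 70.6% to 72.9% of their probes passed the scanner's test of signal above background. All 13 member probes exceeded background on each of the 5 arrays, as did 8 of 8 goblet cell markers and 7 of 7 smooth muscle markers. So did 29816 of the 32917 features tested, so passing this test does not mark a tissue. No member probe was saturated, and the brightest member spot reached 32.9% of the saturation value of the scanner. Of the 5 small intestine markers, 3 were well above background on all 5 arrays. In whole tissue, fewer cells of a type and less RNA per cell cannot be told apart.

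None of the 10 genes was called in NT-3N against Control. At a limma adjusted p under 0.05, with Benjamini-Hochberg adjustment over all features, 0 of 10 were higher and 0 of 10 lower. Of all features, 0.143% were called (0.125% higher and 0.0182% lower). At so small a share, 0 of 10 does not set the members apart from other features. Nor did any member have an unadjusted p under 0.05 in limma, where 9.62% of all features did, and the local-pooled-error test called 0 of 10 after adjustment and 1 of 10, Car1, before it, where it gave 3.82% of all features. For each of the 10 genes the arrays of the groups overlapped, whereas 28.4% of all features showed no overlap. With normexp background correction, 1 of 10 members, Lgals4, showed no overlap, against 23.6% of all features. Adjusted p in limma lay between 0.72 for Epcam and 0.96 for Car4.

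The median log2 fold change was -0.12 over the 5 surface genes and -0.025 over the 5 pan-epithelial genes, against -0.019 over all features tested. The intervals set different limits on the groups of genes. For the pan-epithelial genes, the 95% intervals together spanned 0.811-fold to 1.15-fold of Control. For the surface genes they spanned 0.448-fold to 1.4-fold, the widest being that of Car1.

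**Figure D1:**
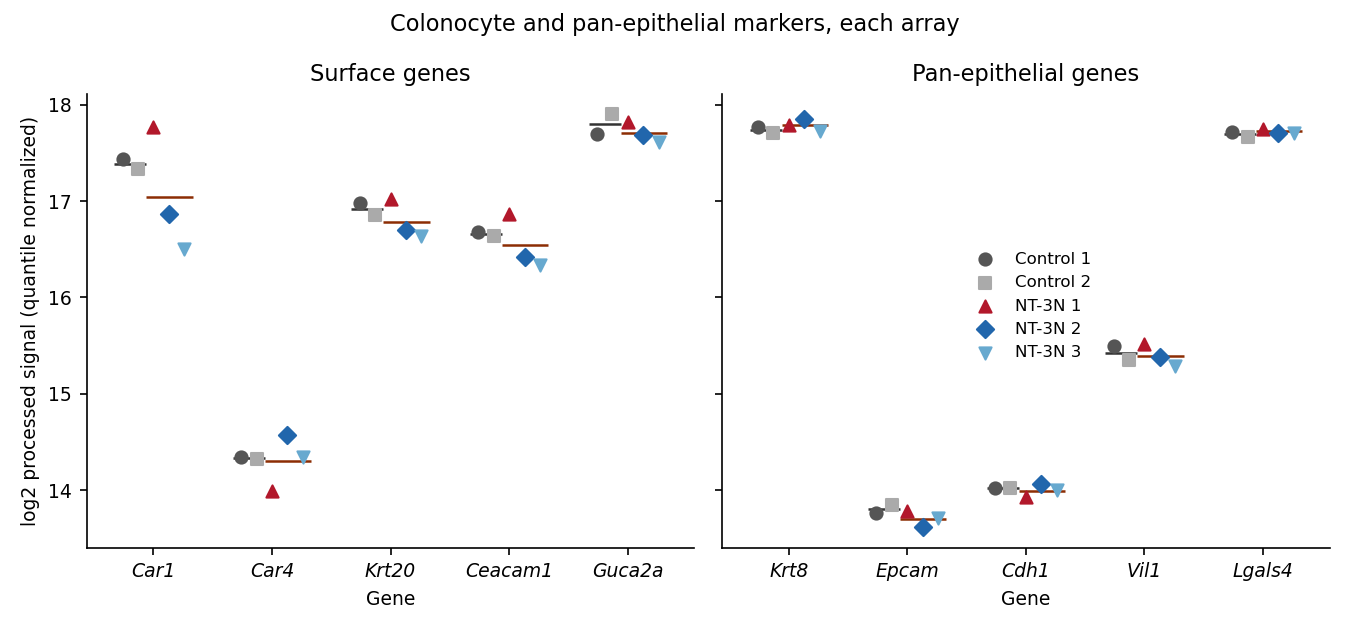
Quantile-normalized log2 processed signal (y axis) of the 10 genes (x axis) on each of the 5 arrays, with 1 symbol per array and short lines at the mean of Control (grey, n = 2) and of NT-3N (brown, n = 3). The NT-3N arrays of Car1 lie between 16.50 and 17.77, whereas all 5 arrays of Lgals4 lie between 17.67 and 17.75.

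Car1 encodes a cytosolic carbonic anhydrase that is abundant in colonocytes. Its log2 signal was 17.43 and 17.33 on the Control arrays and 17.77, 16.87 and 16.50 on NT-3N arrays 1, 2 and 3. NT-3N replicate 1 was thus the highest and NT-3N replicate 3 the lowest of all 5 arrays, with both controls between them. Control averaged 17.38 ± 0.072 (SD, n = 2), whereas NT-3N averaged 17.05 ± 0.65 (SD, n = 3). This is a log2 fold change of -0.34 with a 95% interval from -1.16 to 0.49 and a limma adjusted p of 0.78. The highest NT-3N array exceeded the lowest by 2.42-fold. The further probe of Car1 gave the same order of all 5 arrays. Its signal was 16.75 and 16.59 in Control and 17.05, 16.14 and 15.77 in NT-3N, with a log2 fold change of -0.35.

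Krt20, which encodes an intermediate filament keratin of mature intestinal epithelium, showed the same order of the NT-3N mice. Its log2 signal was 16.98 and 16.86 in Control and 17.02, 16.69 and 16.64 in NT-3N. NT-3N replicate 1 lay above both controls and the other NT-3N arrays below both. The log2 fold change was -0.13 (95% interval -0.43 to 0.17, limma adjusted p = 0.76).

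Ceacam1, an adhesion molecule of the apical membrane, had a log2 signal of 16.68 and 16.64 in Control and of 16.86, 16.42 and 16.33 in NT-3N. NT-3N replicate 1 was again highest and replicate 3 lowest, and the log2 fold change was -0.12 (95% interval -0.49 to 0.25, limma adjusted p = 0.83). Its other probe, matched to another RefSeq transcript of the gene, gave 14.13 and 14.20 in Control and 14.25, 13.85 and 13.84 in NT-3N, again with NT-3N replicate 1 highest. Ceacam2 is a close relative of Ceacam1, and probes of one may bind RNA of the other. It had 16.77 and 16.83 in Control and 16.88, 16.58 and 16.56 in NT-3N, a log2 fold change of -0.13 (limma adjusted p = 0.74).

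Guca2a encodes guanylin, a peptide secreted into the lumen that acts on the receptor guanylate cyclase C and so regulates salt and water transport. Its log2 signal was 17.69 and 17.90 in Control and 17.82, 17.68 and 17.62 in NT-3N. Here a control was highest, and the controls differed from each other by as much as the NT-3N arrays did, by 0.21 in each group on the log2 scale. The log2 fold change was -0.088 (95% interval -0.31 to 0.13, limma adjusted p = 0.79).

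Car4, the carbonic anhydrase anchored at the apical membrane, showed another order. Its log2 signal was 14.35 and 14.33 in Control and 13.99, 14.58 and 14.34 in NT-3N, so that NT-3N replicate 1, highest for Car1, was lowest for Car4. The log2 fold change was -0.033 (95% interval -0.43 to 0.36, limma adjusted p = 0.96). All 5 surface genes were thus lower in NT-3N by their mean, none beyond the spread between mice, and Car4 was higher under median scaling, with a log2 fold change of 0.019.

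The pan-epithelial genes varied less. Krt8, which pairs with Krt18 in the filaments of simple epithelia, had a log2 signal of 17.77 and 17.71 in Control and 17.79, 17.85 and 17.73 in NT-3N. The difference, NT-3N minus Control, was 0.050 on the log2 scale (95% interval -0.099 to 0.20, limma adjusted p = 0.82), which became -0.050 under 75th percentile scaling. Epcam, an adhesion molecule used to sort epithelial cells, had 13.77 and 13.85 in Control and 13.79, 13.62 and 13.71 in NT-3N. The Control range lay partly above that of NT-3N, with a log2 fold change of -0.10 (95% interval -0.30 to 0.093, limma adjusted p = 0.72). Cdh1 encodes E-cadherin, the cadherin of epithelial adherens junctions. Both controls gave 14.03 and the NT-3N arrays 13.93, 14.06 and 14.0003, a log2 fold change of -0.030 (limma adjusted p = 0.92).

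Vil1 encodes villin, which bundles actin in the brush border. Its log2 signal was 15.49 and 15.35 in Control and 15.51, 15.39 and 15.29 in NT-3N, with a log2 fold change of -0.025 (limma adjusted p = 0.94). Among the NT-3N mice its order was that of Car1, over a range of 0.23 in place of 1.27 on the log2 scale. Lgals4 encodes galectin-4, a lectin of the intestinal epithelium that binds sugars. By the probe used it was the most even of the 10 genes, with 17.71 and 17.67 in Control and 17.75, 17.71 and 17.71 in NT-3N. The log2 fold change was 0.033 (95% interval -0.097 to 0.16, limma adjusted p = 0.87). The further probe of Lgals4 was less even, with 16.91 and 16.89 in Control and 16.86, 17.00 and 16.88 in NT-3N. There NT-3N replicate 1, highest on the probe used, was lowest. The log2 fold change of this further probe was 0.016.

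**Figure D2:**
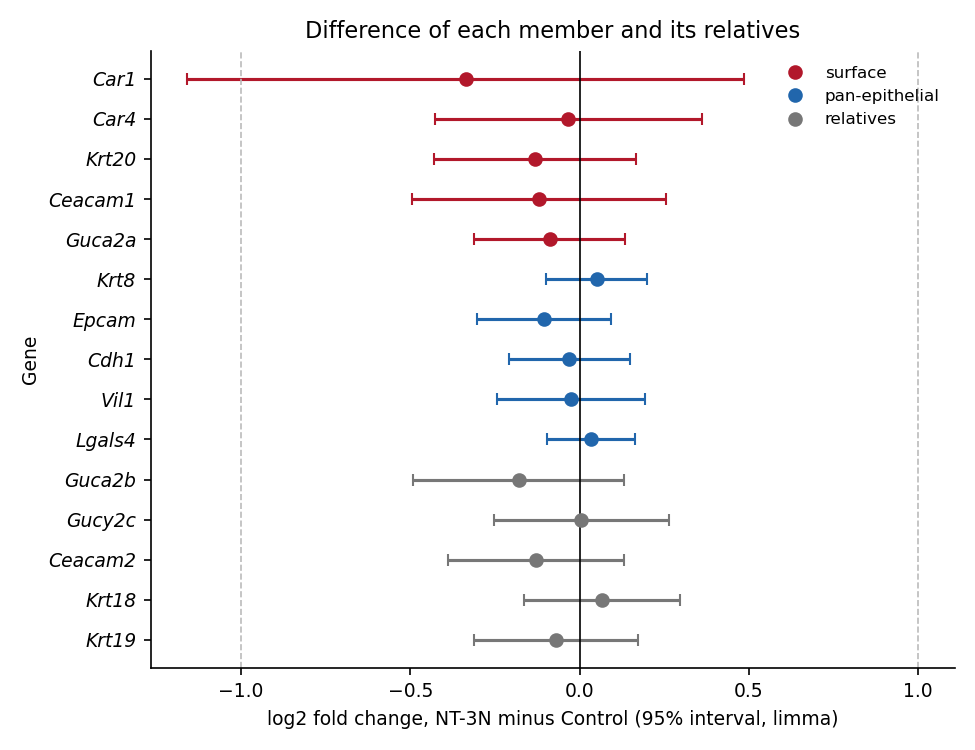
log2 fold change of NT-3N minus Control (x axis) with its 95% interval from limma for the 5 surface genes (red), the 5 pan-epithelial genes (blue) and 5 relatives (grey); dashed lines mark a 2-fold change in either direction. All 15 intervals include 0, and that of Car1, from -1.16 to 0.49, is the widest.

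The surface genes varied more between mice of the same group than the pan-epithelial genes did. The pooled within-group SD of the log2 signal was 0.54 for Car1, 0.24 for Car4, 0.23 for Ceacam1, 0.18 for Krt20 and 0.12 for Guca2a. It was 0.11 for Vil1, 0.077 for Epcam, 0.057 for Krt8, 0.055 for Cdh1 and 0.028 for Lgals4. The least variable surface gene was thus above the most variable pan-epithelial gene. Among the 2907 features with a mean log2 signal of at least 13, where all 10 genes lie, the median SD was 0.0947. All 5 surface genes were above it, and of the pan-epithelial genes only Vil1. Car1 varied more than 98.8% of these features and Lgals4, by the probe used, more than 3.78%. The further probe of Lgals4 had an SD of 0.015 in Control and 0.077 in NT-3N, against 0.033 and 0.025 for the probe used. A wide spread was not particular to the surface members, whose median SD was 0.231. The median SD was 0.378 for the further surface colonocyte genes, the list most like them. It was 0.300 for goblet cell, 0.475 for enteroendocrine, 0.275 for fibroblast and 0.223 for crypt markers, some of them dimmer genes. For smooth muscle markers it was 0.147, and for the further keratin, junction and adhesion genes 0.122. It was 0.257 for carbonic anhydrases, galectins and CEACAM relatives. For the guanylin pathway it was 0.168, and for epithelial transcription and splicing factors 0.0763. With 2 and 3 mice per group this is a description of these arrays, with no test.

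**Figure D3:**
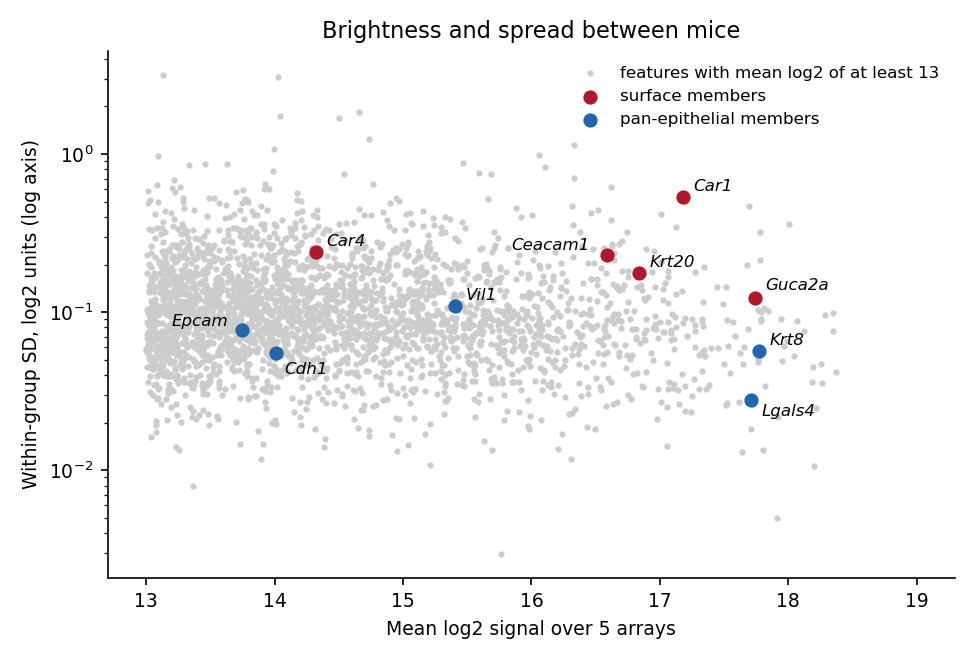
Pooled within-group SD of the log2 signal (y axis, log scale) against the mean log2 signal over the 5 arrays (x axis) for the 2907 features with a mean of at least 13 (grey), the surface genes (red) and the pan-epithelial genes (blue). The surface genes lie between 0.122 and 0.536, and the pan-epithelial genes between 0.0279 and 0.109.

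By SD, the spread was wider in NT-3N than in Control for most members. The exceptions were Guca2a (0.149 in Control and 0.106 in NT-3N) and Lgals4 (0.033 and 0.025). An SD from 2 controls is itself imprecise, and a range over 3 arrays is expected to be wider than a range over 2. The range over the 3 NT-3N arrays was 0.208 to 1.27 on the log2 scale for the surface genes and 0.043 to 0.226 for the pan-epithelial genes, whereas the controls differed by at most 0.211 and 0.141. Relative to the mean of each gene over the 5 arrays, the median deviation of the surface genes was 0.093 and 0.050 on the Control arrays and 0.19, -0.14 and -0.20 on NT-3N arrays 1, 2 and 3. That of the pan-epithelial genes stayed between -0.043 and 0.038. The median of the surface genes thus stood high against that of the pan-epithelial genes on NT-3N array 1 and low on the other NT-3N arrays. Car4 did not follow it, with its lowest signal on NT-3N array 1 (13.99) and its highest on NT-3N array 2 (14.58).

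The surface values depended on single arrays. Without NT-3N replicate 1 the median log2 fold change of the surface genes was -0.25, and without NT-3N replicate 3 it was -0.049. Without NT-3N replicate 1, Car1 went from 17.41 in Control to 16.72 in NT-3N, a log2 fold change of -0.69 with a 95% interval from -1.002 to -0.39. This was not called, with a limma adjusted p of 0.11, and neither were Ceacam1 at -0.27 (adjusted p = 0.15) and Krt20 at -0.25 (adjusted p = 0.20). These 3 genes then had an unadjusted p under 0.05 in limma, as did 15.8% of all features. With this array left out, 5 of 10 members showed no overlap between the groups, near the 50.1% of all features. Car4 turned to 0.12. Without NT-3N replicate 3, Car1 had a log2 fold change of -0.055. No member was called with any array left out. Leaving out Control 1, Control 2, NT-3N 1, NT-3N 2 or NT-3N 3, limma called 0.0958%, 0.358%, 0.258%, 0.00306% or 0% of all features. With any array but NT-3N replicate 1 left out, 0 of 10 members had an unadjusted p under 0.05, against 7.24% of all features without Control 1, 6.05% without Control 2, 6.57% without NT-3N 2 and 7.24% without NT-3N 3. In the same order, 4, 0, 1 and 1 of 10 members showed no overlap, against 52.1%, 51.3%, 37.2% and 39.2% of all features.

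**Figure D4:**
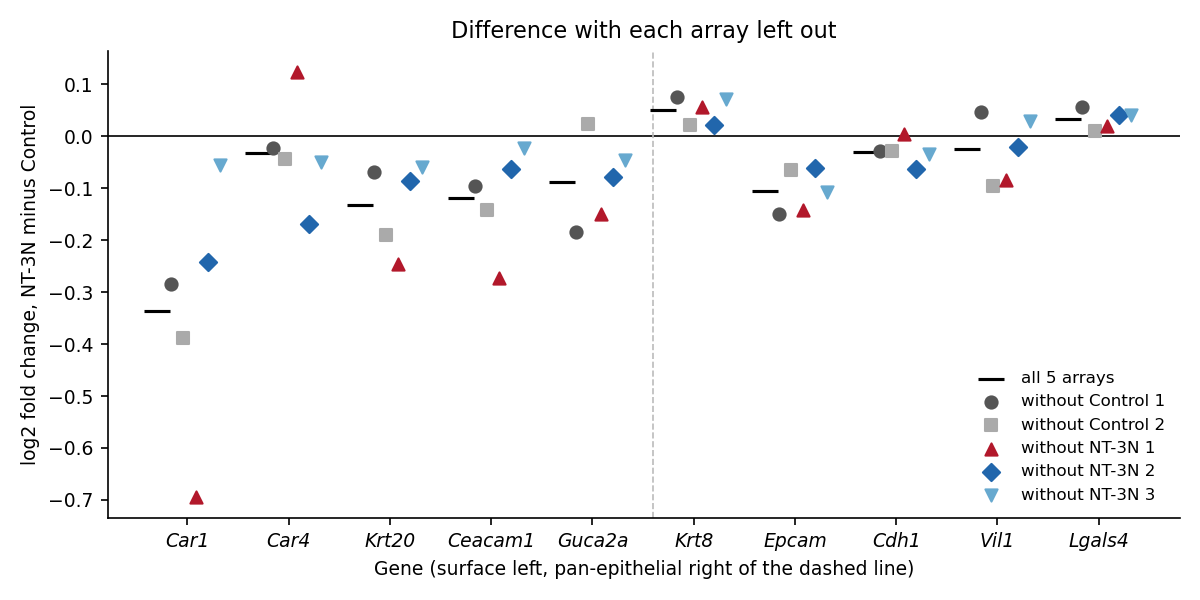
log2 fold change of NT-3N minus Control (y axis) for each of the 10 genes (x axis) with all 5 arrays (black bar) and with each array left out in turn (symbols). Car1 ranges from -0.69 without NT-3N replicate 1 to -0.055 without NT-3N replicate 3, and Lgals4 from 0.011 to 0.056.

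Other epithelial genes were compared by array. Of 18 further surface colonocyte genes tested, such as transporters and brush border proteins, 16 lay above their own 5-array mean on Control array 1 and 9 on Control array 2. On NT-3N arrays 1, 2 and 3 the numbers were 16, 5 and 2. Their median deviation was 0.25 on NT-3N array 1 and -0.23 on NT-3N array 3. In contrast, 24 further keratin, junction and adhesion genes of epithelium had median deviations between -0.047 and 0.058. By their median, the 18 further surface genes had the order of the NT-3N mice that Car1, Krt20 and Ceacam1 had. Not every gene did. Among the NT-3N arrays, Car2 (15.65, 15.88 and 15.88) and Slc26a3 (12.75, 12.89 and 12.89) were lowest on array 1. The list was chosen with earlier results of these data known.

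Markers of other cells and of position along the gut also differed on NT-3N array 1. The mean log2 signal of 8 goblet cell markers was 16.49 there and 16.92 to 17.145 on the other 4 arrays, and 0 of 8 lay above their own mean on this array. For 7 smooth muscle markers it was 14.88, against 15.10 to 15.46 elsewhere. For 4 HOX genes of the distal colon it was 10.01, against 10.47 to 10.99. For 5 small intestine markers it was 8.30, against 6.92 to 7.65, but the genes of this list differed among themselves. Fabp6, a bile acid binding protein of the ileum, had a log2 signal of 13.04 on NT-3N array 1 and between 10.42 and 11.30 on the others. Apoa4 was also highest there, at 5.08, but was above background on only 2 of 5 arrays. Sis, the brush border sucrase-isomaltase, was higher on Control array 2 (10.03) than on NT-3N array 1 (9.66), and Alpi, an alkaline phosphatase, was level on them (9.91 and 9.94). Lct, the brush border lactase, was lowest on NT-3N array 1, at 3.79 against 4.30 to 5.50, and was above background on 4 of 5 arrays. Hoxb13, a gene of the most distal gut, had 14.55 on NT-3N array 1, 15.37 and 15.35 on the other NT-3N arrays, and 15.13 and 14.70 in Control. By group, the mean level ranged over the 2 Control and the 3 NT-3N arrays from 10.47 to 10.58 and from 10.01 to 10.99 for the HOX genes. It ranged from 7.38 to 7.65 and from 6.92 to 8.30 for the small intestine markers, from 17.01 to 17.145 and from 16.49 to 17.08 for the goblet cell markers, and from 15.43 to 15.46 and from 14.88 to 15.215 for the smooth muscle markers. NT-3N array 1 was also lowest for crypt (10.15), enteroendocrine (11.23), fibroblast (12.51) and enteric neuron and glia markers (9.04). Other arrays stood apart too. B cell markers averaged 7.12 on Control array 2, against 8.59 to 9.49 elsewhere. Fat markers averaged 9.20 on Control array 1 and 8.84 on NT-3N array 1, against 6.25 to 7.90 elsewhere. The part of these differences in the values of the surface genes was not tested.

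**Figure D5:**
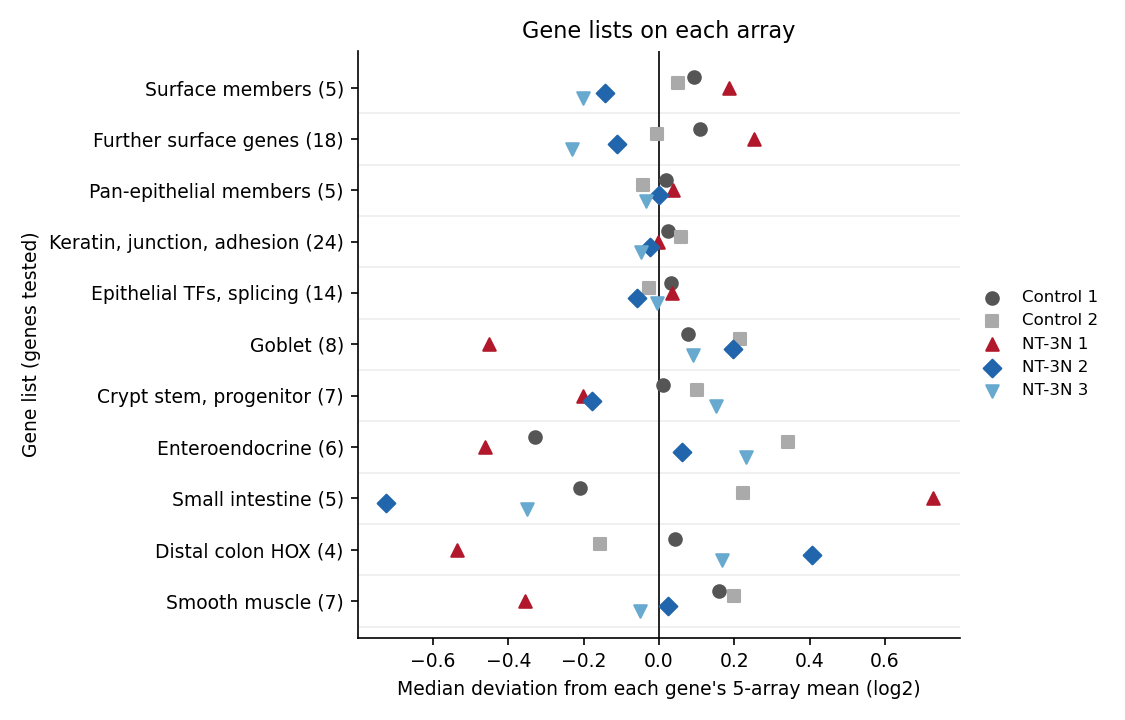
Median deviation of 11 gene lists from the 5-array mean of each gene (x axis, log2 units) on each of the 5 arrays (symbols), with the number of genes tested beside the name of each list (y axis). NT-3N array 1 is at 0.19 for the surface genes and at -0.45 for the goblet cell markers, whereas the pan-epithelial genes lie between -0.043 and 0.038 on all 5 arrays.

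Further genes of the epithelium were examined as lists. Of 18 further surface genes limma called 0 at an adjusted p under 0.05, with 0 at an unadjusted p under 0.05, 6 higher and 12 lower and a median log2 fold change of -0.10. Slc26a3, the chloride and bicarbonate exchanger of the colonocyte surface, had 12.74 and 11.89 in Control and 12.75, 12.89 and 12.89 in NT-3N. Control replicate 2 was the low array, and the log2 fold change was 0.53 (limma adjusted p = 0.54), or 0.10 without that array. Lypd8, a secreted protein that binds flagellated bacteria, had a log2 fold change of -0.070 (limma adjusted p = 0.73). Of 24 keratin, junction and adhesion genes 3 were lower and 0 higher at an unadjusted limma p under 0.05, against 9.62% of all features. Of the 24, 0 were called, with a median log2 fold change of -0.042. The largest non-overlapping difference was that of Cldn4, a claudin of tight junctions, with 9.16 and 8.98 in Control and 8.62, 8.74 and 8.48 in NT-3N and a log2 fold change of -0.46 (limma adjusted p = 0.36). The keratin partners did not pass either, with 0.066 for Krt18 and -0.070 for Krt19.

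Of 14 epithelial transcription and splicing factors tested 0 were called and 0 had an unadjusted p under 0.05, with 8 higher and 6 lower and a median log2 fold change of 0.017. Cdx2, which specifies intestinal identity, had 14.09 and 13.995 in Control and 13.986, 13.29 and 13.48 in NT-3N. NT-3N replicate 1 lay just below the lower control, the other NT-3N arrays further below, and the log2 fold change was -0.46 (limma adjusted p = 0.54). Hnf4g had a log2 fold change of 0.29 (limma adjusted p = 0.70). In the guanylin pathway 0 of 7 genes were called and 0 had an unadjusted p under 0.05. Guca2b, which encodes uroguanylin, had a log2 fold change of -0.18 (limma adjusted p = 0.70). Gucy2c, the receptor of these peptides, had 11.80 and 11.86 in Control and 11.99, 11.70 and 11.81 in NT-3N, a log2 fold change of 0.0054.

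Among 18 carbonic anhydrases, galectins and CEACAM relatives tested, 0 were called. At an unadjusted limma p under 0.05, 1 was higher and 2 lower, against 9.62% of all features. Ceacam16 had 6.10 and 4.04 in Control and 6.65, 6.83 and 6.82 in NT-3N, a log2 fold change of 1.69 (limma adjusted p = 0.43) that was 2.74 and called without Control replicate 1 (limma adjusted p = 0.047) and 0.66 without Control replicate 2. Lgals9 had 12.18 and 12.89 in Control and 12.07, 11.32 and 11.83 in NT-3N, a log2 fold change of -0.79 (limma adjusted p = 0.46). Of the 10 lists of cell type and position markers, limma called 0 genes. At an unadjusted limma p under 0.05, which 9.62% of all features had, 3 smooth muscle genes were lower. So was 1 gene each of the goblet, crypt and small intestine lists, and 1 gene each of the fibroblast and B cell lists was higher. Of all 32917 features, 17654 had a lower mean in NT-3N, and 28.4% showed no overlap. The mean of NT-3N was lower for 7 of 7 smooth muscle markers and for 8 of 8 goblet cell markers, with no overlap for 6 and 1 of them. Among genes above background on all arrays their largest non-overlapping log2 fold changes were -0.65 for Spdef of goblet cells, -0.84 for Ascl2 of crypt stem cells, -0.88 for Smtn of smooth muscle, 0.32 for Dcn of fibroblasts, 3.65 for Ms4a1 of B cells and -0.14 for Elavl4 of enteric neurons. Of these, Smtn and Ms4a1 had the lowest limma adjusted p, 0.062 and 0.059.

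The 250 bases upstream of the start were searched for the letters TTCNNNGAA, the core that STAT proteins bind, because the agonist acts through STAT3. Both strands were covered, since this pattern is its own reverse complement. RefSeq promoters on GRCm38.p6 were at hand for 8 of the 10 genes, all but Car1 and Cdh1. None of the 8 held the letters, and 7.02% of 32851 promoters did. This says only that the letters are not in this window. Krt20 alone of the 8 held TATAAA on either strand, as did 12.4% of all promoters. The keratins of each group are shown, beside Socs3, a STAT3 feedback gene that does hold the STAT letters. Capitals mark TATAAA in Krt20, which begins at position -29 from the start, and the STAT letters in Socs3, which begin at -154. The sequences are from chr11:99438154-99438403 on the minus strand for Krt20, chr15:102004343-102004592 on the minus strand for Krt8 and chr11:117969367-117969616 on the minus strand for Socs3.
Krt20: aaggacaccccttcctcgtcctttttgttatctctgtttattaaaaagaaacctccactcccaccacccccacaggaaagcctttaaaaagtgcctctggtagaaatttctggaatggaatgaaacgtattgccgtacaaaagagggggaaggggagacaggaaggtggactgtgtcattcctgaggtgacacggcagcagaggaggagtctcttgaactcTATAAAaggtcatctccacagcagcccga
Krt8: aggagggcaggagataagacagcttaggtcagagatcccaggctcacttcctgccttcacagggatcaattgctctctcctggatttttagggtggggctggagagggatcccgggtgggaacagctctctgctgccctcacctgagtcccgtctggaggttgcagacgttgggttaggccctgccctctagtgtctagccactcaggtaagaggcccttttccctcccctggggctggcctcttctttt
Socs3: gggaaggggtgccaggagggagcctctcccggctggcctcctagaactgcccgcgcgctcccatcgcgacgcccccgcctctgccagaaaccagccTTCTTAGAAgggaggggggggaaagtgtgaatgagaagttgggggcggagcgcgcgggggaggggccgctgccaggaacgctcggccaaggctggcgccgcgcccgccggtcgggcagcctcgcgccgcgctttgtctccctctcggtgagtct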

How the data were processed

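RNA of whole colon was hybridised to single-colour Agilent SurePrint G3 mouse arrays. The authors extracted spot intensity with Agilent Feature Extraction 11.0.1.1; the deposited processed signal is background-subtracted and detrended, with no scaling between arrays. The authors also deposited quantile-normalized log2 values of 37380 probes, used as an alternative.

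Control and outlier spots were left out, spots of a probe were averaged on the log2 scale of the processed signal, and arrays were quantile-normalized. Probes well above background on at least 2 arrays were kept. Accessions were named from RefSeq (GRCm38.p6), which matched 32994 of 56605 probes. Groups were tested with limma 3.58.1 under R 4.3.3 (intensity trend, two-sided, Benjamini-Hochberg over all features). Intervals are limma's 95% intervals. The methods name a local-pooled-error test, which was run as an alternative. The tests were also run on simulated data, with independent normal errors and spreads drawn from limma's own fit. Shifts shared by many genes of a mouse were not simulated, so that run cannot speak to them. Precision is limited by the number of arrays, and p-values measure the spread between these mice only; an exact two-sided permutation test over 5 arrays cannot go below p = 0.1.

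Besides the members, genes were named where called, where they showed the largest rise or fall of a list among genes above background on all arrays and without overlap, or as fixed relatives. The members and lists were chosen with earlier results of these data known. Alternatives covered scaling, background correction, the deposited values, filters, variance model, array weights, the replicate block, probe rule, test and leaving out each array.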

Additional observations from a re-analysis of the deposited data

How the results depend on the processing

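No member was called in any of the 18 alternatives, with 0 higher and 0 lower in each and a lowest adjusted p of 0.058, for Car1 under the local-pooled-error test. Under that test 1 member, Car1, had an unadjusted p under 0.05, against 3.82% of all features. Over all features the 41 higher and 6 lower calls ranged from 0 to 192 and from 0 to 155. Without each array in turn the members at an unadjusted p under 0.05 ranged from 0 to 3 and those without overlap from 0 to 5, and 1, Lgals4, showed no overlap with normexp, against 23.6% of all features. The surface median ranged from -0.25 to -0.049 and the pan-epithelial median from -0.029 to 0.046 without each array.

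Replicate numbers carry no pairing of mice in the labels. Over the 2 pairs of equal number the deviations correlated at 0.13 and 0.036, which from so few arrays cannot show whether mice were paired. With the replicate block 0 members and 0 features were called, and the pan-epithelial median was 0.028, as was the value of Vil1. Signs also turned, for values near 0, under 75th percentile scaling (Krt8 -0.050, Lgals4 -0.043), median scaling (Car4 0.019, Krt8 -0.028, Cdh1 0.0059, Vil1 0.017, Lgals4 -0.021), normexp (Cdh1 0.0053), array weights (Car4 0.086, Gucy2c -0.053) and the local-pooled-error test (Car4 0.0070, Gucy2c -0.016). Without each array the log2 fold change ranged from -0.17 to 0.12 for Car4, -0.18 to 0.024 for Guca2a, -0.064 to 0.0046 for Cdh1, -0.096 to 0.046 for Vil1, -0.39 to 0.024 for Guca2b, -0.070 to 0.071 for Gucy2c, -0.0082 to 0.14 for Krt18 and -0.15 to 0.016 for Krt19.

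In the other lists 1 B cell gene, Ms4a1, was called with median scaling, normexp, probes above background on all arrays and array weights. In smooth muscle 1 gene, Smtn, was called with probes above background on all arrays, robust variance and array weights. The local-pooled-error test called 3 further surface genes, 2 relatives of the members and 1 each of the goblet, crypt, smooth muscle, B cell, fat and small intestine markers. Before adjustment this test gave 3.82% of all features a p under 0.05. Its share of all features after adjustment is not given here, so these calls cannot be set against it. Without each array the calls ranged from 0 to 1 among relatives and 0 to 4 among B cell genes, the latter without Control replicate 1. A block for slide or scan could not be fitted, as all arrays shared 1 of each. Fits with a single control take its spread from the NT-3N arrays. Normexp used the median spot signal. What caused these shifts was not tested.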
